A study of Mus musculus with 36 samples.

Results

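The TGF-beta genes described here are 10 of the 24421 genes counted in each liver library, chosen by symbol. They are the 3 ligands Tgfb1, Tgfb2 and Tgfb3, the 3 receptors Tgfbr1, Tgfbr2 and Tgfbr3, the receptor-activated Smads Smad2 and Smad3, and the 2 inhibitors Smad7 and Skil. All 10 were found in all 36 libraries, and all 10 passed the filter on low counts in every comparison.

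TGF-beta is made as a latent dimer that is held in the matrix and released by integrins, thrombospondin and proteases. The active ligand binds the type II receptor (Tgfbr2), which phosphorylates the type I receptor (Tgfbr1), and this in turn phosphorylates Smad2 and Smad3, which enter the nucleus with Smad4 and act on transcription. Tgfbr3 (betaglycan) is a co-receptor that presents ligand, Smad7 blocks the type I receptor, and Skil (SnoN) represses Smad target genes. In injured liver the pathway is known above all for turning stellate cells into matrix-producing myofibroblasts and for halting hepatocyte growth.

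The livers came from male mice of the inbred strain C57BL/6J, 7 weeks old at purchase and acclimated for 1 week, and all had first spent 12 weeks on CDAHFD, a fat-rich diet without choline in which amino acids replace protein and which serves as a model of steatohepatitis. One experiment then gave 2 weeks of high-fat diet (HFD) with a weekly dose of 4.3 mg/kg Fc, the antibody fragment used as control, in 10 mice, or of 5 mg/kg Fc(mML1)B3, the same fragment carrying a macrocyclic peptide that binds and activates the receptor Met, in 10 others. The other experiment gave 10 days of standard diet with those doses on days 1, 4 and 7, Fc in 9 mice and Fc(mML1)B3 in 7. Diet therefore went together with experiment, dosing and length of treatment, and these cannot be told apart, and no group without CDAHFD was analysed here. Levels are given in CPM, the counts of a gene relative to the TMM-scaled library total, or in TPM where genes are compared with each other, since TPM also divides by the summed exon length. Errors written with ± are the SD over the mice of a group, 10, 10, 9 and 7 in the order above, and differences are log2 fold changes with their standard error (SE). In whole liver, fewer cells of a type and less RNA per cell cannot be told apart.

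The 36 libraries held 14949035 to 28466853 counts, with a median of 23558194.5, and in all 147 pairs within groups the counts differed by more than counting noise. Hepatocyte markers were abundant in every library, as the label of liver requires, and their summed level was between 76586 and 155758 CPM. Some libraries stood apart in the markers of other cell types. Fc mice 7 and 8 under HFD had neutrophil marker sums of 60.2 and 51.5 CPM, beside 5.35 to 14.3 CPM in the other 8, and the highest macrophage marker sums, 1837 and 1789 CPM, the next being 1369 CPM. Fc(mML1)B3 mouse 5 under HFD had the highest stellate (1524 CPM), cholangiocyte (840 CPM) and macrophage (1330 CPM) sums of its group and the lowest hepatocyte sum. Fc mouse 5 under standard diet had a neutrophil sum of 58.7 CPM, beside 6.77 to 9.63 CPM in the other 8. The part of these cells in the results was not tested, and values of the 10 genes without the HFD libraries named here are given where they change a call. The clock genes moved with the treatment groups: Arntl, a core activator of the circadian clock, was at 1.20 ± 0.506 CPM in the Fc group under HFD and 18.6 ± 8.15 CPM in the Fc(mML1)B3 group. Under standard diet it was at 3.96 ± 1.32 CPM and 1.91 ± 1.00 CPM. The part of the clock in the values below was not tested. The libraries carry index numbers. Under HFD those of Fc mice 1 to 4 are 7 to 10 and those of Fc mice 5 to 10 are 1 to 6, so no number repeats. Those of the Fc(mML1)B3 mice run from 1 to 4 and then from 1 to 6, so that numbers repeat. The repeat divides that group into a first series of 4 and a second of 6. The Fc mice, whose numbers also fall back to 1 after mouse 4, were not divided. Which libraries of different groups were run together is not given in the sources used here, so values by series are given beside the results they touch.

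To show where transcription of the genes that differed between Fc and Fc(mML1)B3 mice begins, the 250 bases before the RefSeq start site of Tgfb1, Tgfbr2 and Smad3 are printed 5′ to 3′ on the strand of the gene (GRCm38.p6, the assembly that mm10 stands for). Tgfb1 lies at chr7:25686752-25687001 on the plus strand, Tgfbr2 at chr9:116175364-116175613 and Smad3 at chr9:63757995-63758244 on the minus strand. Capitals mark matches, on either strand, to the Smad palindrome GTCTAGAC, the Smad box CAGAC, the AP-1 site TGANTCA, the E-box CACGTG read by clock factors and the GC box GGGCGG.
Tgfb1: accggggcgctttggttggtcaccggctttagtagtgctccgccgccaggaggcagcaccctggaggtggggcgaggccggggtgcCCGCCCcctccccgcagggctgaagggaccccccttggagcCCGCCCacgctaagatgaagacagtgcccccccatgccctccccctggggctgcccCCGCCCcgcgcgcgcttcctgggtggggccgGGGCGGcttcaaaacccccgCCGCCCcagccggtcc
Tgfbr2: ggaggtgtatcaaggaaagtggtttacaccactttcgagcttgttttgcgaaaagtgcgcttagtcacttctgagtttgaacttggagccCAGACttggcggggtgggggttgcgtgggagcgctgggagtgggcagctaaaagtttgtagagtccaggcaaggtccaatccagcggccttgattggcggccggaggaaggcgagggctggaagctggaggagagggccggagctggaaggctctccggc
Smad3: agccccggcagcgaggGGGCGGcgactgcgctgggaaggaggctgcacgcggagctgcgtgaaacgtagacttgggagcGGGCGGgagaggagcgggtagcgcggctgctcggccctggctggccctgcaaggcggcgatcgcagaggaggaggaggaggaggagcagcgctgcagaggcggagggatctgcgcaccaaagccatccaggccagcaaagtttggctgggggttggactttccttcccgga
The Tgfb1 window held 5 GC boxes, the Smad3 window 2 and the Tgfbr2 window none of them but 1 Smad box. Of 32851 RefSeq windows of this length, 32.7% held a GC box, 42.2% the Smad box, 6.75% the AP-1 site, 6.02% the E-box and 0.167% the Smad palindrome. Of the 10 genes, 5 had an entry in the table, the other two being Tgfb2 and Tgfbr1.

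Per unit length, Tgfb1, Tgfbr2 and Tgfbr1 were the 3 most abundant of the 10 in every group, and Tgfb3 and Tgfb2 the 2 least abundant. In the Fc group under HFD, Tgfb1 led with 28.5 ± 7.32 TPM, followed by Tgfbr2 with 22.5 ± 3.34 and Tgfbr1 with 14.4 ± 2.50. The ranges of Tgfb1 and Tgfbr2 overlapped, while Tgfbr1 lay above Smad3, the next gene at 7.13 ± 1.97 TPM, without overlap. In the Fc(mML1)B3 group under standard diet the order at the top was Tgfbr2 with 21.6 ± 1.90 TPM, Tgfbr1 with 17.2 ± 1.28 and Tgfb1 with 14.3 ± 0.770, and none of these ranges overlapped. The middle of the order was not resolved in any group. Smad2, Smad7, Skil and Tgfbr3 had group means of 4.53 to 6.48 TPM with overlapping ranges. Tgfb2, the lowest, was at 2.01 ± 0.906 TPM in the Fc group under HFD and 1.01 ± 0.295 TPM in the Fc(mML1)B3 group under standard diet, and rested on 28 to 197 reads per library.

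**Figure D1:**
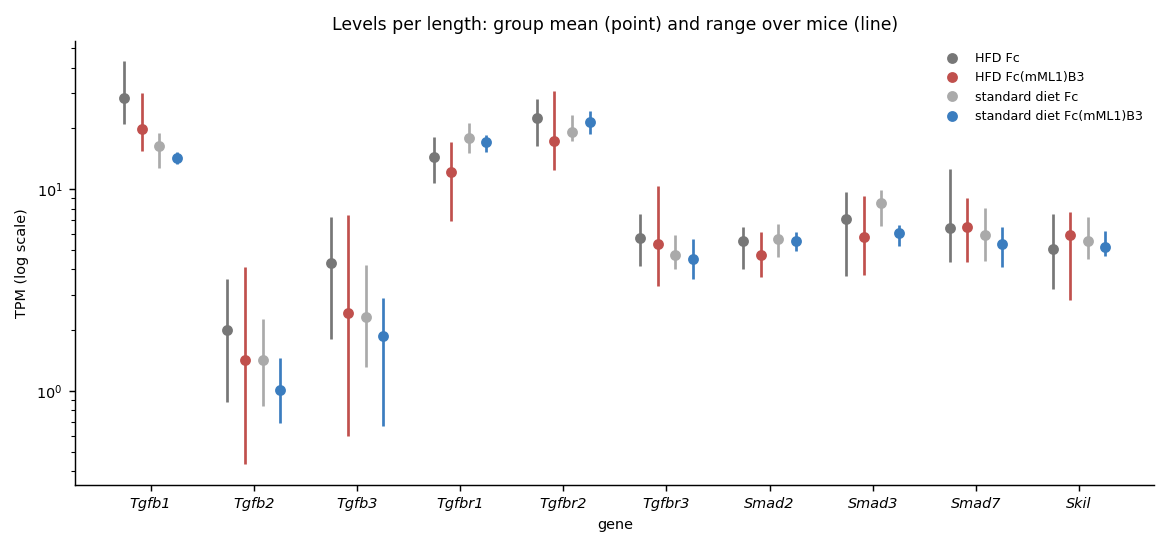
Level per length of the 10 genes in each group, in TPM on a log scale. Points are group means and lines span the lowest to the highest mouse (10, 10, 9 and 7 mice). Tgfb1, Tgfbr1 and Tgfbr2 had the highest means in every group and Tgfb2 the lowest.

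Under HFD, the comparison asks how the Met agonist changed expression in livers still exposed to a fat diet. Of the 10 genes, 0 were higher and 2 were lower in Fc(mML1)B3 mice: the ligand Tgfb1 and the receptor Tgfbr2 (edgeR's quasi-likelihood F-test, adjusted p below 0.05 over 13299 genes). Of all genes tested, 8.14% were higher and 6.68% were lower by the same rule. The median log2 fold change of the 10 was -0.17, beside -0.0099 over all genes.

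Tgfb1, which encodes the ligand most studied in liver fibrosis, was on chromosome 7 (25687002 to 25704996 on mm10). In the Fc group under HFD its lowest mouse was at 24.0 CPM, the median at 28.4 and the highest at 47.5, and in the Fc(mML1)B3 group these were 18.9, 22.8 and 29.1. The groups overlapped, with 5 of the 10 Fc(mML1)B3 mice below every Fc mouse. The means were 31.05 ± 7.38 and 23.2 ± 3.64 CPM, and the log2 fold change was -0.41 (SE 0.12, adjusted p = 0.0221). Fc mice 7 and 8, which also had the most neutrophil and macrophage marker RNA of their group, were the highest, at 47.5 and 39.8 CPM. Over the 20 fits that each left out 1 mouse the value was between -0.44 and -0.32, with adjusted p from 0.0116 to 0.0458. With both mice left out it was -0.25 and the call was lost (adjusted p = 0.0756), and with Fc(mML1)B3 mouse 5 left out as well it was -0.29 (adjusted p = 0.0310). By index series, the first 4 Fc(mML1)B3 libraries had 25.6 ± 2.33 CPM and the other 6 had 21.6 ± 3.54 CPM. Against all Fc mice the first series alone gave -0.24 (adjusted p = 0.324) and the second -0.52 (adjusted p = 0.0194).

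The ratio of Tgfb1 to the cytoskeletal gene Actb was also formed from the reads. Under HFD, Fc mice had 26.3 ± 2.75 Tgfb1 reads per 1000 Actb reads and Fc(mML1)B3 mice had 18.7 ± 3.42. Each of the 10 ratios under Fc(mML1)B3 was smaller than the Fc median. The difference of mean log2 ratios was -0.51 (2-sided permutation test with 100000 resamples, p = 8e-05, adjusted over both diets 0.00016). Without Fc mice 7 and 8 it was -0.45 (exact permutation test, p = 0.000229). The mean ratio was 21.7 ± 1.83 in the 4 libraries of the first index series and 16.7 ± 2.67 in the 6 of the second. Actb itself was at 1172 ± 173.5 CPM in Fc mice and 1252 ± 132.1 CPM in Fc(mML1)B3 mice.

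The other two ligands were expressed at lower levels and were more variable. Tgfb3 was at 3.71 CPM in the lowest, 7.19 in the median and 12.1 in the highest Fc mouse, and at 1.23, 3.40 and 11.4 CPM in the Fc(mML1)B3 mice. Of the 10 Fc(mML1)B3 mice, 6 were below every Fc mouse and mouse 5 was near the top of the Fc range. The log2 fold change was -0.76 (SE 0.29, adjusted p = 0.0831), which did not pass, and without Fc(mML1)B3 mouse 5, the mouse with the highest stellate and cholangiocyte marker sums of its group, it was -1.04 and passed (adjusted p = 0.00632). Without that mouse and Fc mice 7 and 8 it was -1.08 (adjusted p = 0.00774). Tgfb2 was at 2.43, 4.39 and 8.55 CPM in the lowest, median and highest Fc mouse and at 1.19, 2.80 and 8.78 CPM in Fc(mML1)B3 mice. Its log2 fold change of -0.43 (95% confidence interval -1.02 to 0.16, adjusted p = 0.322) did not pass.

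**Figure D2:**
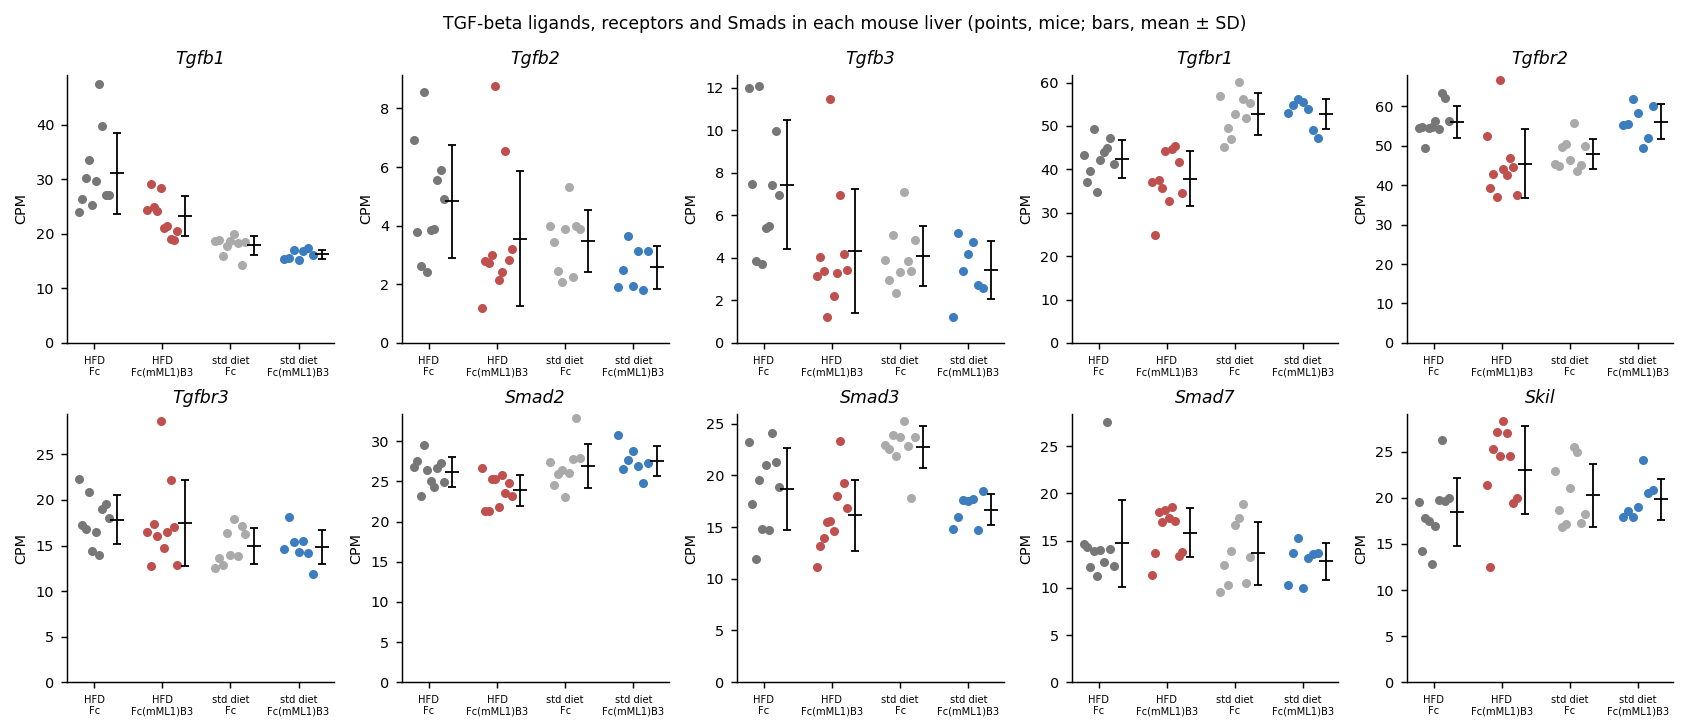
Expression of the 10 genes in each mouse, in CPM, by group. Points are mice and bars are the mean ± SD of the group. For Tgfb1 the Fc mice under HFD had a mean of 31.05 CPM and the Fc(mML1)B3 mice 23.2 CPM, and for Smad3 under standard diet 6 of 7 Fc(mML1)B3 mice lay below all Fc mice.

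Tgfbr2, the type II receptor that binds ligand and starts the signal, was on chromosome 9 (116087695 to 116175363, minus strand). Under HFD its lowest, median and highest Fc mice were at 49.4, 54.8 and 63.4 CPM, and the Fc(mML1)B3 mice at 36.9, 43.5 and 66.6 CPM. Of the 10 Fc(mML1)B3 mice, 8 were below every Fc mouse, and mouse 5 was above every Fc mouse. The log2 fold change was -0.29 (SE 0.083, adjusted p = 0.0201), and -0.36 without mouse 5. Without Fc mice 7 and 8 it was -0.27 and the call was lost (adjusted p = 0.0508), while without those 2 and mouse 5 it was -0.35 and passed (adjusted p = 0.00120). The first index series gave -0.35 (adjusted p = 0.028) and the second, which holds mouse 5, gave -0.24 (adjusted p = 0.0978).

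The remaining receptors did not pass. Tgfbr1, the kinase that phosphorylates Smad2 and Smad3, was at 42.3 ± 4.37 CPM in Fc mice and 37.8 ± 6.35 CPM in Fc(mML1)B3 mice (log2 fold change -0.15, 95% confidence interval -0.33 to 0.031, adjusted p = 0.258). Betaglycan, encoded by Tgfbr3, was at 17.9 ± 2.65 and 17.5 ± 4.73 CPM, and the interval of its log2 fold change ran from -0.27 to 0.23. Mouse 5 of the Fc(mML1)B3 group, highest for Tgfbr2, was also the highest of its group for Tgfb2, Tgfb3 and Tgfbr3, the last at 28.6 CPM. Its sum of stellate markers was 1524 CPM, the next in the group being 1013 CPM, and its sum of cholangiocyte markers was 840 CPM, the next being 558 CPM.

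Among the signal transducers under HFD, Smad2 was at 26.2 ± 1.84 CPM in Fc mice and 23.9 ± 1.94 CPM in Fc(mML1)B3 mice, with 9 of 10 Fc(mML1)B3 mice below the median of the Fc mice. Its log2 fold change of -0.12 did not pass (adjusted p = 0.165). Smad3 was at 18.7 ± 3.97 and 16.1 ± 3.45 CPM (log2 fold change -0.20, adjusted p = 0.308), with 13.4 ± 1.82 CPM in the first index series and 17.9 ± 3.12 CPM in the second.

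The inhibitors were the genes with positive values. Skil was at 12.9, 18.7 and 26.3 CPM in the lowest, median and highest Fc mouse and at 12.5, 24.6 and 28.3 CPM in Fc(mML1)B3 mice, of which 9 of 10 were above the median of the Fc mice. Its log2 fold change of 0.34 (SE 0.13) gave an adjusted p of 0.0735. Smad7 was at 14.7 ± 4.64 and 15.9 ± 2.55 CPM (log2 fold change 0.13, adjusted p = 0.552). Fc mouse 8 was the highest Fc mouse for both, with 26.3 CPM of Skil and 27.5 CPM of Smad7, and without it Skil (0.40) and Smad7 (0.27) both passed. Without Fc mice 7 and 8, the pair with high neutrophil and macrophage marker sums, Skil passed (0.43, adjusted p = 0.0253) and Smad7 did not (0.26, adjusted p = 0.0696). Skil also passed without Fc(mML1)B3 mouse 2, at 0.41.

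Under standard diet, 1 of the 10 genes was higher and 1 was lower in Fc(mML1)B3 mice. Tgfbr2 rose and Smad3 fell. Of the 13570 genes tested, 8.56% were higher and 7.55% lower. The median log2 fold change of the 10 was -0.068, beside -0.011 over all genes.

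Smad3, which carries the signal to most fibrotic target genes, was on chromosome 9 (63646767 to 63757994, minus strand). The lowest, median and highest Fc mice were at 17.8, 23.0 and 25.2 CPM, and the 7 Fc(mML1)B3 mice at 14.7, 17.5 and 18.4 CPM. Of these 7, 6 were below every Fc mouse, and the single low Fc mouse, number 8, made the groups overlap. The means were 22.7 ± 2.07 CPM and 16.7 ± 1.52 CPM, and the log2 fold change was -0.45 (SE 0.068, adjusted p = 0.000133). Leaving out any 1 mouse gave -0.49 to -0.42. Among the libraries with index numbers above 130, which hold 4 of the Fc mice and all Fc(mML1)B3 mice, the value was -0.43 (adjusted p = 0.0139).

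Tgfbr2 under standard diet was at 43.7, 46.4 and 55.8 CPM in the lowest, median and highest Fc mouse and at 49.3, 55.4 and 62.0 CPM in Fc(mML1)B3 mice. All 7 Fc(mML1)B3 mice were above the median of the Fc mice and 3 were above every Fc mouse. The log2 fold change was 0.22 (SE 0.056, adjusted p = 0.00956). Within the high index numbers it was 0.20 (adjusted p = 0.121), and with all 36 libraries in the fit 0.23 (adjusted p = 0.105), so that the call was lost in both.

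The ligands did not pass under standard diet. Tgfb1 was at 17.9 ± 1.73 CPM in Fc mice and 16.2 ± 0.872 CPM in Fc(mML1)B3 mice, all 7 of which were below the median of the Fc mice (log2 fold change -0.14, adjusted p = 0.143). Without Fc mouse 8, the lowest, it was -0.18 and passed (adjusted p = 0.0292). Its ratio to Actb was 19.4 ± 1.80 and 19.2 ± 0.944 reads per 1000 Actb reads, a log2 difference of -0.0070 (2-sided exact permutation test over 11440 groupings, p = 0.905). Actb itself was at 923 ± 70.7 CPM in Fc mice and 845 ± 48.0 CPM in Fc(mML1)B3 mice. Tgfb2 was at 3.48 ± 1.05 and 2.57 ± 0.734 CPM, with 7 of 7 Fc(mML1)B3 mice below the median of the Fc mice (log2 fold change -0.44, adjusted p = 0.148), and Tgfb3 was at 4.09 ± 1.42 and 3.43 ± 1.37 CPM (log2 fold change -0.26, adjusted p = 0.512).

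The other genes had narrow intervals around 0 under standard diet. The interval of the log2 fold change was -0.12 to 0.12 for Tgfbr1, -0.20 to 0.17 for Tgfbr3 and -0.10 to 0.16 for Smad2. For the inhibitors it was wider, -0.38 to 0.18 for Smad7 and -0.24 to 0.16 for Skil.

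**Figure D3:**
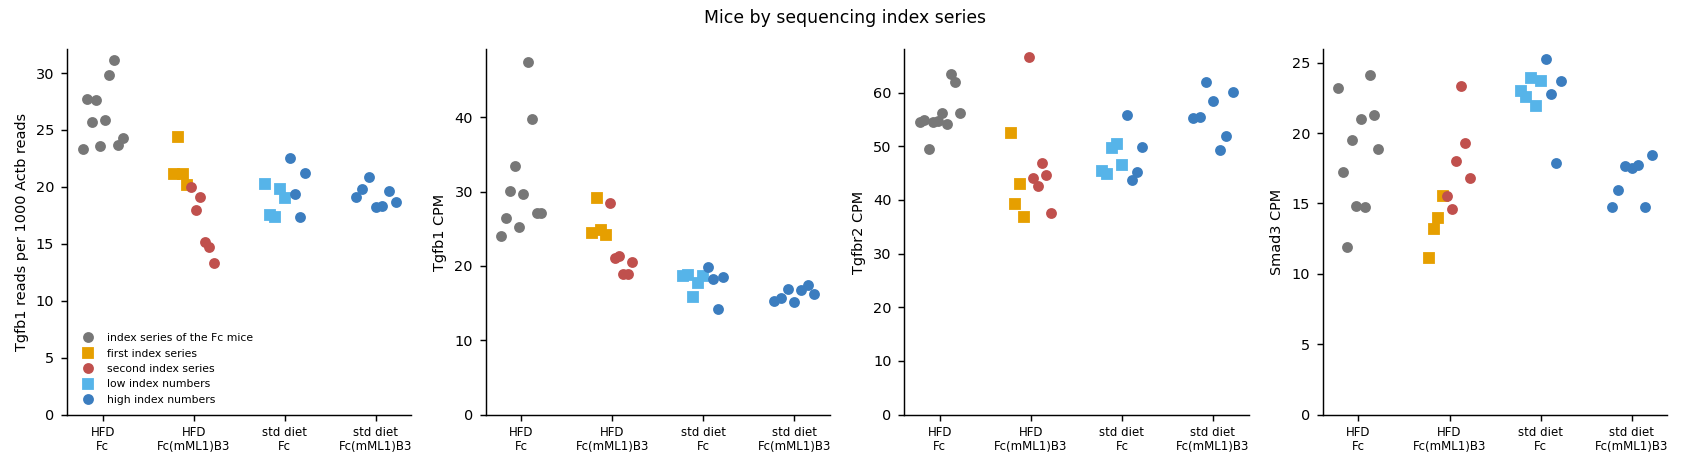
Tgfb1 reads per 1000 Actb reads and CPM of Tgfb1, Tgfbr2 and Smad3 in each mouse, with symbols for the series of sequencing index numbers. Under HFD the ratio was 21.7 ± 1.83 in the first and 16.7 ± 2.67 in the second series of Fc(mML1)B3 mice, and 26.3 ± 2.75 in Fc mice. Under standard diet the high index numbers hold 4 of the 9 Fc mice and all 7 Fc(mML1)B3 mice.

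The interaction term asks whether Fc(mML1)B3 acted unequally in the 2 experiments. Tgfbr2 was the 1 gene of the 10 that passed, with a difference between the effects of 0.53 (SE 0.11, adjusted p = 0.00108 over 14105 genes). Over all genes, 4.66% passed with a positive and 4.4% with a negative interaction, which is the log2 fold change under standard diet minus that under HFD. The medians of Tgfbr2 were 54.8 CPM in Fc and 43.5 CPM in Fc(mML1)B3 mice under HFD, and 46.4 and 55.4 CPM under standard diet, so that Fc(mML1)B3 was on the lower side in one experiment and on the higher side in the other. The value was between 0.49 and 0.61 over the 36 fits that each left out 1 mouse, and 0.50 without Fc mice 7 and 8 of the HFD group. Smad3, which passed under standard diet, did not differ detectably between the experiments (-0.24, 95% confidence interval -0.56 to 0.090, adjusted p = 0.444), nor did Tgfb1, which passed under HFD (0.28, interval -0.016 to 0.57, adjusted p = 0.272). Skil had an interaction of -0.36 (adjusted p = 0.228), and of -0.44 (adjusted p = 0.0494) without Fc(mML1)B3 mouse 2 of the HFD group.

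Between the experiments, the livers on standard diet had lower CPM of Tgfb1 and higher CPM of Tgfbr1, and relative to Actb Tgfb1 was lower in Fc mice, while in Fc(mML1)B3 mice it did not pass. These comparisons use the same mice as those above and are not independent of them. In Fc mice, standard diet against HFD, 2 of the 10 genes were higher and 3 lower, while 23.3% and 24.6% of all genes were. Tgfb1 was lower by a log2 fold change of -0.80 (adjusted p = 4.19e-08) and the groups did not overlap, the highest mouse on standard diet at 19.9 CPM and the lowest on HFD at 24.0 CPM. Its ratio to Actb was 26.3 ± 2.75 reads per 1000 Actb reads on HFD and 19.4 ± 1.80 on standard diet, a log2 difference of -0.44 (2-sided exact permutation test, adjusted over both groups p = 4.33e-05, the smallest it can give), again without overlap. Tgfb3 (-0.86, adjusted p = 0.0121) and Tgfbr2 (-0.23, adjusted p = 0.0134) were also lower. Tgfbr1 (0.32, adjusted p = 0.00113) and Smad3 (0.28, adjusted p = 0.0302) were higher, and Smad3 lost the call without Fc mouse 3, 5 or 7 of the HFD group, at 0.24, 0.25 and 0.25. Tgfbr3, at -0.26 (adjusted p = 0.0598), passed without HFD mouse 5 or 7 or standard diet mouse 6 or 8, at -0.29 to -0.27, and in the fit without HFD Fc mice 7 and 8 and Fc(mML1)B3 mouse 5, at -0.29.

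In Fc(mML1)B3 mice, 3 of the 10 genes were higher and 1 lower on standard diet, beside 20.7% and 17.9% of all genes. Tgfb1 was lower (-0.52, adjusted p = 0.000222). Here too the groups did not overlap, with 17.5 CPM in the highest mouse on standard diet and 18.9 CPM in the lowest on HFD. Relative to Actb this was lost, with 18.7 ± 3.42 reads per 1000 Actb reads on HFD and 19.2 ± 0.944 on standard diet, overlapping ranges and a log2 difference of 0.061 (2-sided exact permutation test, adjusted p = 0.591). Actb itself was at 1252 ± 132.1 CPM on HFD and 845 ± 48.0 CPM on standard diet in these mice. Tgfbr1 (0.48, adjusted p = 2.08e-05), Tgfbr2 (0.30, adjusted p = 0.00269) and Smad2 (0.20, adjusted p = 0.00743) were higher. All 7 Fc(mML1)B3 mice on standard diet had more Tgfbr1 than every Fc(mML1)B3 mouse on HFD, 47.2 to 56.1 CPM against 25.0 to 45.3 CPM. Smad7 and Skil had values of -0.31 and -0.21 and did not pass, though all 7 mice on standard diet were below the HFD median for both. Without HFD mouse 2, Skil was at -0.29 and passed (adjusted p = 0.0321).

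**Figure D4:**
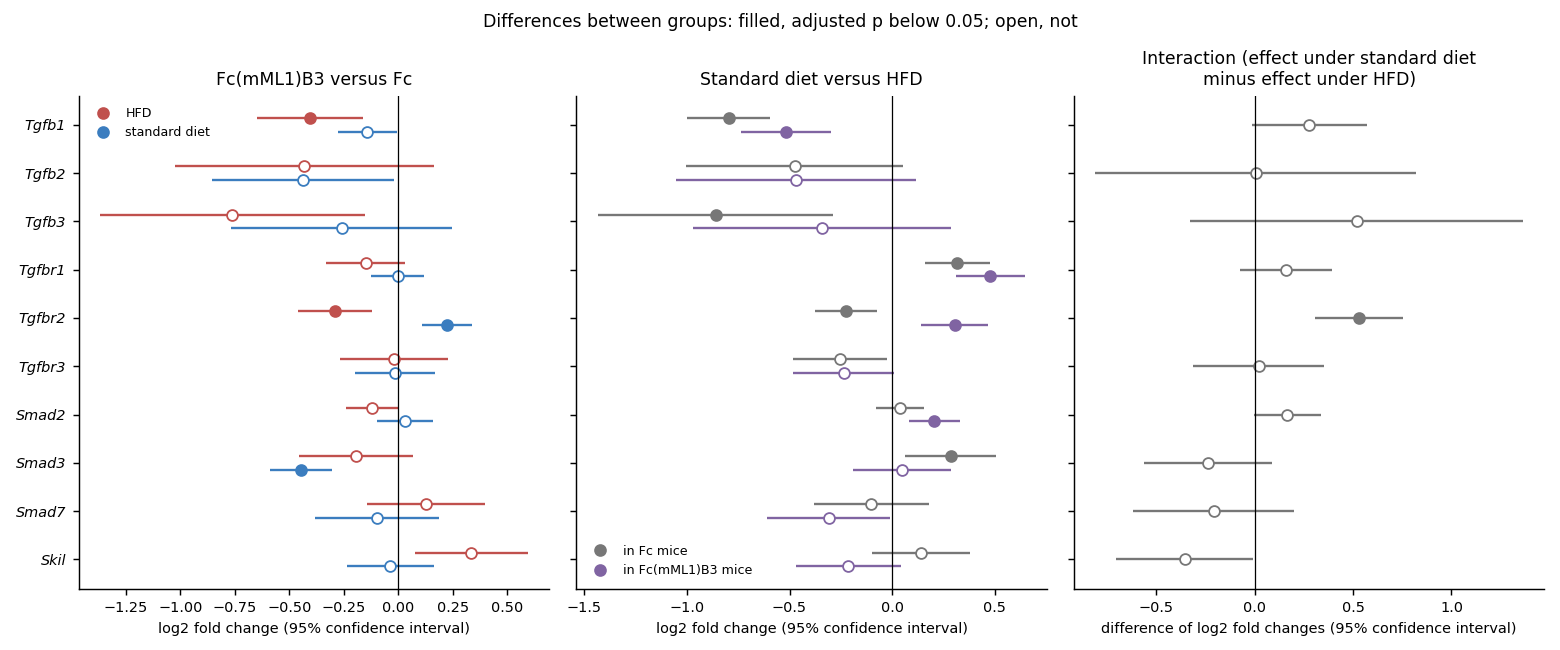
Log2 fold changes of the 10 genes with 95% confidence intervals for Fc(mML1)B3 against Fc, for standard diet against HFD, and for the interaction. Filled points passed an adjusted p of 0.05 and open points did not. Tgfbr2 lies at -0.29 under HFD and at 0.22 under standard diet, and its interaction is 0.53.

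Of 89 other genes of the pathway, in 6 lists, 79 were tested under HFD, of which 7 were higher and 3 lower in Fc(mML1)B3 mice, beside 8.14% and 6.68% of all genes. Without Fc mice 7 and 8 these counts were 7 and 2, beside 7.44% and 6.24% of all genes, and without those and Fc(mML1)B3 mouse 5 they were 7 and 5, beside 9.37% and 8.54%. None of 12 tested genes of latent complexes and activation, of 9 receptors and co-receptors or of 11 other Smads and nuclear partners passed, but 2 of the 12 were lower without Fc mice 7 and 8 and Fc(mML1)B3 mouse 5. Of 10 ubiquitin ligases and other inhibitors, 2 were higher: Nedd4l, a ligase that marks activated Smad2 and Smad3 for destruction, from 28.1 ± 6.29 to 58.7 ± 11.3 CPM (log2 fold change 1.08), and Usp15, a deubiquitinase known to promote TGF-beta signalling and no inhibitor of it, from 35.4 ± 3.21 to 43.2 ± 6.15 CPM (0.30). Of 16 activin and BMP ligands and antagonists, 3 were higher, among them the activin subunits Inhbc (0.72) and Inhba (0.64), and 1 was lower. Of 21 response genes, 2 were higher and 2 lower. Cdkn1a, a cell cycle inhibitor, rose from 7.17 ± 4.39 to 24.9 ± 13.6 CPM (1.82) and Id3 rose by 0.66, while Junb, an AP-1 subunit, fell by 0.80 on the log2 scale. The median of the response list was -0.18. Without Fc mice 7 and 8, 3 of the 21 response genes were higher and 1 lower. Of the 16 activin and BMP genes, 2 were higher and 1 lower in that fit. Its calls of single genes are not given here.

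Under standard diet, 81 of the 89 were tested, of which 3 were higher and 10 lower, beside 8.56% and 7.55% of all genes. Of 13 genes of latent complexes and activation, 4 were lower and 0 higher, with a list median of -0.23 beside -0.011 over all genes. Thbs1, whose product can release TGF-beta from its latent form, fell from 6.03 ± 1.61 to 3.74 ± 1.12 CPM (log2 fold change -0.69, adjusted p = 0.0148), and the integrin subunit Itgav fell from 45.0 ± 3.40 to 38.4 ± 1.27 CPM (-0.23). Of 11 other Smads and nuclear partners, the Smad anchor Zfyve9 was higher (0.31) and the repressor Tgif1 lower (-0.45). Nedd4l fell from 47.3 ± 8.54 to 29.5 ± 6.00 CPM (-0.68), and Wwp1 (0.23) and Strap (0.16), other inhibitors, rose. The activin subunit Inhbb (-0.98) and Gdf15 (-0.75) fell. Of 21 response genes, 0 were higher and 2 lower, Junb (-1.05) and Cdkn1a (-0.58), with a list median of -0.19.

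Of 83 pathway genes tested for interaction, 1 was positive and 6 negative, beside 4.66% and 4.4% of all genes. These counts were 1 and 8 of 83 without Fc mice 7 and 8 of the HFD group, beside 4.8% and 5.24% of all genes, and without those and Fc(mML1)B3 mouse 5 they were 2 and 7 of 82, beside 5.97% and 5.55%. Nedd4l had an interaction of -1.74, Cdkn1a one of -2.38, Gdf15 one of -1.26, Id3 one of -0.84, Inhbc one of -0.53 and Tgif1 one of -0.50. Ppm1a, a phosphatase of Smad2 and Smad3, had the single positive value, 0.29. None of 9 receptors and co-receptors outside the 10 genes passed the test of interaction.

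**Figure D5:**
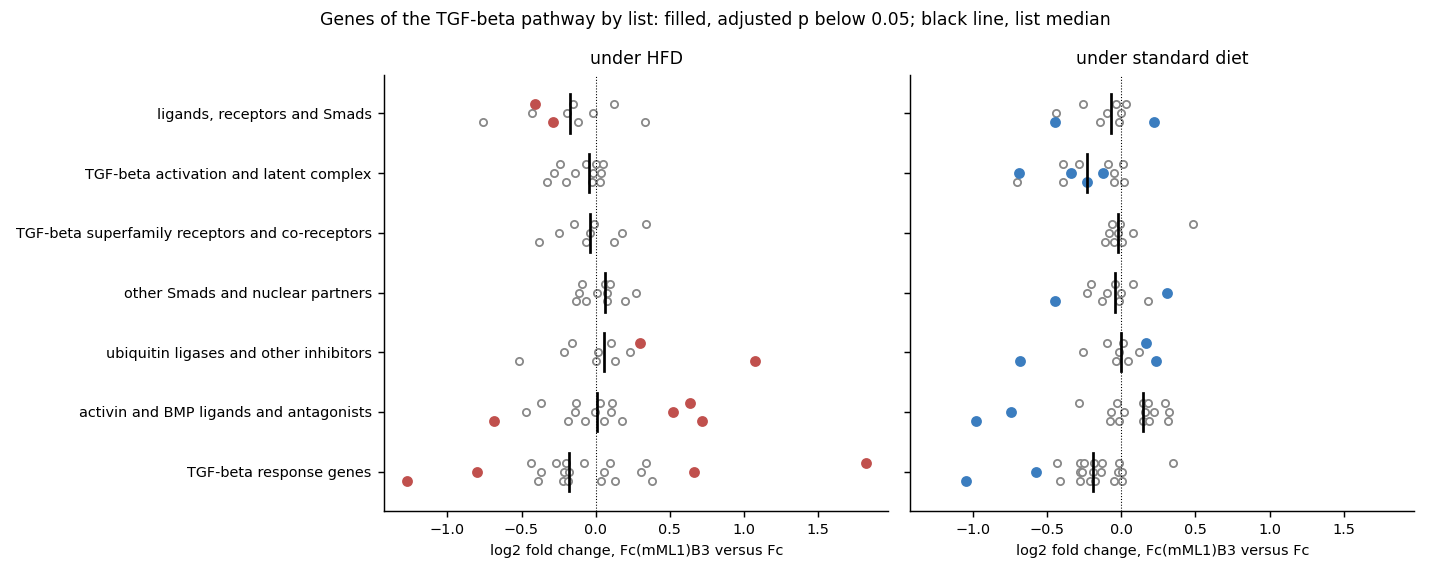
Log2 fold changes of Fc(mML1)B3 against Fc for the 10 genes and the 6 lists of other pathway genes, under HFD and under standard diet. Filled points passed an adjusted p of 0.05, open points did not, and black lines are list medians. The latent complex list has a median of -0.045 under HFD and -0.23 under standard diet.

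Between the experiments, 21 of 83 pathway genes were higher and 31 lower on standard diet in Fc mice, beside 23.3% and 24.6% of all genes. Of 22 response genes, 11 were lower and 1 higher, with a median of -0.40. Tgfbi fell from 192 ± 36.9 to 97.2 ± 4.83 CPM (log2 fold change -0.98) and the matrix proteoglycan Bgn from 370.2 ± 83.4 to 199 ± 21.9 CPM (-0.90), while Fn1, which hepatocytes also make, rose by 0.42. The endothelial co-receptor Eng fell by 0.61, the latent complex anchor Lrrc32 by 0.60 and the pathway inhibitor Pmepa1 by 0.92 on the log2 scale. Among the higher genes were the coactivator Crebbp (1.10), Acvr2a (0.64), Smad5 (0.48), Usp15 (0.42) and Smurf2 (0.41). In Fc(mML1)B3 mice, 20 were higher and 29 lower, beside 20.7% and 17.9% of all genes, with Crebbp at 0.71 and Smurf1 at 0.42 among the first and Eng at -0.54, Tgif1 at -0.72, Nedd4l at -0.99, Tgfbi at -0.80 and Cdkn1a at -1.93 among the second. Of 22 response genes, 1 was higher and 10 lower there.

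The marker lists of other cell types are given beside these results, and their part in them was not tested. None of the markers was at 0 in all libraries. The summed level of 10 Kupffer cell and macrophage markers was 769 to 1837 CPM in Fc mice and 726 to 1330 CPM in Fc(mML1)B3 mice under HFD, and 566 to 1013 CPM and 616 to 799 CPM under standard diet. The sum of 10 stellate cell markers was 835 to 1409 CPM in Fc mice and 768 to 1524 CPM in Fc(mML1)B3 mice under HFD, and 627 to 951 CPM and 580 to 743 CPM under standard diet. The 8 sinusoidal endothelial markers summed to 265 to 319 CPM in Fc mice and 246 to 394 CPM in Fc(mML1)B3 mice under HFD, and to 265 to 331 CPM and 268 to 336 CPM under standard diet.

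Under HFD, 2 of 8 T and B cell markers and 2 of 4 tested neutrophil markers were lower in Fc(mML1)B3 mice, beside 6.68% of all genes, and 0 of 10 macrophage, 0 of 10 stellate, 0 of 5 cholangiocyte, 0 of 2 platelet, 0 of 8 sinusoidal and 0 of 8 hepatocyte markers passed. When Fc mice 7 and 8 were left out, 1 of 8 T and B cell and 0 of 4 neutrophil markers were lower, beside 6.24% of all genes in that fit, and 1 of 8 sinusoidal markers was higher, beside 7.44%. Without these and Fc(mML1)B3 mouse 5, 3 of 10 stellate, 2 of 8 T and B cell and 0 of 4 neutrophil markers were lower, beside 8.54% of all genes, and 3 of 8 sinusoidal markers and 1 of 8 hepatocyte markers were higher, beside 9.37%. Under standard diet, 2 of 10 stellate, 1 of 10 macrophage, 1 of 5 cholangiocyte and 1 of 8 hepatocyte markers were lower in Fc(mML1)B3 mice, beside 7.55% of all genes, and 2 of 8 hepatocyte markers and 1 of 8 sinusoidal markers were higher, beside 8.56%. None of 8 T and B cell markers passed there.

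Between the experiments in Fc mice, 7 of 10 stellate, 5 of 10 macrophage, 7 of 8 T and B cell, 2 of 5 cholangiocyte, 1 of 8 sinusoidal, 1 of 4 neutrophil and 1 of 2 platelet markers were lower on standard diet, beside 24.6% of all genes. In the same comparison 3 of 8 hepatocyte, 1 of 10 stellate, 1 of 8 sinusoidal and 1 of 2 platelet markers were higher, beside 23.3%. Without HFD Fc mice 7 and 8, 7 stellate, 4 macrophage, 6 T and B cell, 1 cholangiocyte, 1 sinusoidal, 1 neutrophil and 1 of 3 platelet markers were lower, beside 20.5% of all genes, and 3 hepatocyte, 1 stellate and 1 sinusoidal marker were higher, beside 23.2%. In Fc(mML1)B3 mice, 6 of 10 stellate, 3 of 10 macrophage, 1 of 8 T and B cell, 2 of 5 cholangiocyte, 2 of 8 sinusoidal and 1 of 4 neutrophil markers were lower on standard diet, beside 17.9% of all genes, and 1 stellate, 1 T and B cell, 1 sinusoidal and 2 hepatocyte markers were higher, beside 20.7%. Without HFD Fc mice 7 and 8 and Fc(mML1)B3 mouse 5, 3 of 10 stellate, 4 of 10 macrophage, 0 of 8 T and B cell, 2 of 5 cholangiocyte, 6 of 8 sinusoidal and 1 of 4 neutrophil markers were lower, beside 18.1% of all genes, and 1 stellate, 1 T and B cell, 1 sinusoidal and 2 hepatocyte markers were higher, beside 20.4%.

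Within groups, the genes differed in which markers they followed and how closely. With the group means removed, Pearson's r between Tgfb1 and the summed macrophage markers was 0.84 over the 36 libraries, whereas r was 0.59 with the neutrophil and 0.037 with the stellate markers. Tgfb3 had r of 0.72 with the stellate and 0.80 with the cholangiocyte markers and 0.086 with the macrophage markers. Tgfb2 had 0.68 and 0.73, Tgfbr3 had 0.80 and 0.65, and Tgfbr1 had 0.65 and 0.63, with the stellate and cholangiocyte markers. With the same markers Tgfbr2 had 0.48 and 0.51 and Smad3 had 0.34 and 0.53. Smad2, Smad7 and Skil followed no sum closely. Their r largest in size was -0.37 for Smad2 (hepatocyte), 0.35 for Smad7 (neutrophil) and 0.31 for Skil (stellate). Tgfb2, Tgfb3, Tgfbr3 and Tgfbr1 had negative r with the hepatocyte sum, -0.71, -0.70, -0.73 and -0.65 in this order, and with the sinusoidal sum, -0.62, -0.74, -0.63 and -0.70. Such values describe the spread between mice that share their liver composition and library, and they carry no test.

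The single genes most like each of the 10, by the same measure, were as follows. Tgfb1 was closest to C1qb (0.86), a complement gene expressed in macrophages, and Plekho1 (0.85). Tgfb2 was closest to Vsig10 (0.85), Rhoj (0.83) and Nlgn2 (0.82), and Tgfb3 to Bcam (0.89), Loxl1 (0.88) and Arhgef25 (0.88). Tgfbr1 was closest to Zeb2 (0.85), Mab21l3 (0.84) and Map3k1 (0.82), Tgfbr3 to Mmp2 (0.84), Pamr1 (0.83) and Afap1 (0.82), and Smad3 to Lppr3 (0.80), Rassf5 (0.79) and Ppard (0.78). The 4 others had weaker partners. The highest r was 0.73 for Tgfbr2 (Ccdc136, then Zfp704 and Gpr34), 0.73 for Skil (Actr3, then Mapre1 and Aebp2), 0.70 for Smad7 (Id1, then Pgm2l1 and Crlf3) and 0.65 for Smad2 (Plxdc1, then Map4k5 and Trpm7). Without the 2 libraries farthest from the median of the gene, r with the first partner was 0.61 for Tgfbr2 and 0.54 for Skil. For Smad7 it was 0.64 and for Smad2 0.67. For Tgfb1 and C1qb, r was 0.96, 0.86 and 0.83 in the other groups and -0.35 in the 7 Fc(mML1)B3 mice on standard diet. Among the 10 genes themselves, the closest pair was Tgfb2 and Tgfb3 (r = 0.68), followed by Tgfbr1 and Tgfbr3 (0.63) and Tgfb3 and Tgfbr3 (0.62).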

How the data were processed

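Liver RNA of 36 mice was sequenced, 1 library per mouse, and libraries were grouped by their titles. The values are counts that the authors deposited. Per the labels and the study's methods, reads were trimmed with fastp, freed of ribosomal RNA with Bowtie2 2.4.5, aligned to mm10 with STAR 2.7.10a and counted per gene with featureCounts of Subread 2.0.3. Both ends of a pair had to align, each end counted as a read, strand was ignored, and reads with several alignments were not counted.

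From these counts, Fc(mML1)B3 was compared with Fc within each diet, and diets and the interaction over all 36 libraries, using edgeR 4.0.16 and its quasi-likelihood F-test (TMM, filterByExpr, Benjamini-Hochberg over all genes tested). Standard errors follow from the log2 fold change and F, as |log2 fold change|/√F. The fits and the permutation test were tested on simulated data. Log2 CPM for the likeness of genes used a prior count of 2, and TPM used the exon lengths in the files. Index series were formed here from runs of the index numbers in the file headers, and are not batches named by the labels. The Fc mice under HFD were kept together, though their numbers also fall back to 1 after mouse 4. The genes and lists were chosen with earlier results of these data known. All 10 genes are named, up to 2 called genes per pathway list and direction with the smallest p, and the 3 most similar genes, and some results that this rule names are not reported here. For the diet comparisons some of these are given by their list's count only. Alternatives were DESeq2 1.42.0, limma 3.58.1 (voom), other scaling, filters, thresholds, libraries and index series. The ratio to Actb within index series and between the diets and the fits without the HFD libraries that stood apart in markers were added after seeing the data. Mouse numbers did not pair the groups, since at most 2 of the pairs in a comparison had deviations that correlated above 0.1. Mice were housed in groups, and the cage of each is not given in the sources used here.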

Additional observations from a re-analysis of the deposited data

Results flagged for a closer look

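The 10 genes in the 4 groups of mice gave 40 sets of values. In 5 of these sets 1 mouse lay far from the others by Dixon's criterion, which chance meets in about 1 of 20 sets. The sets share mice and are not independent, so 5 of 40 cannot be weighed against that share. Fc(mML1)B3 mouse 5 under HFD had 66.6 CPM of Tgfbr2. Fc mouse 8 under HFD had 27.5 CPM of Smad7 and 26.3 CPM of Skil. Fc mouse 8 under standard diet had 32.8 CPM of Smad2, the highest of its group, and 17.8 CPM of Smad3, the lowest. The mice numbered 8 belong to different experiments.

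The effect of Fc(mML1)B3 on Tgfbr2 differed between the experiments by 0.529 on the log2 scale, by the interaction term, with a lower level under HFD and a higher level under standard diet. Diet, dosing schedule and length of treatment cannot be told apart in this difference.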

How the results depend on the processing

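Of 490 values of single genes under the alternatives, 438 kept their direction and side of the threshold, 22 lost a call, 16 gained one and 14 changed sign, all of the last uncalled. With thresholds named by the study, adjusted p below 0.1 with a fold above 2, or 0.05 with 1.5 under standard diet, for which it also names the first pair, 0 of the 10 genes were higher and 0 lower in each of the 5 comparisons. The first pair was applied here to the diet comparisons and the interaction, for which the study sets none. Under HFD, voom, the fit of all 36 libraries and the second index series each gave 1 higher gene (Skil), and the second index series and the replicate block each gave 1 lower gene (Tgfb1 was at -0.39 with the block, adjusted p = 0.0669). Without Fc mice 7 and 8 of the HFD group, a setting chosen after seeing the data, 1 gene was higher (Skil) and 0 were lower under HFD, beside 7.44% and 6.24% of all genes, and without these and Fc(mML1)B3 mouse 5, 1 was higher (Skil) and 3 were lower, beside 9.37% and 8.54%. Under standard diet the fit of all 36 libraries, the replicate block and the single index series gave 0 higher genes (Tgfbr2 at 0.22 with the block, adjusted p = 0.0549). The block changed no other call, and 0 of 10 and 0 of 7 mice correlated best with their own number. Between the diets in Fc(mML1)B3 mice, voom and the fit of 2 groups gave 2 lower genes. Tgfb3 under HFD was called by DESeq2 (adjusted p = 0.0493) and voom (0.00647).

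Signs changed for Tgfbr3 under HFD with the second index series (0.075), and under standard diet for Tgfbr1 without a filter (0.0026), with voom (0.013) and with the block (0.0057), for Tgfbr3 with voom (0.0047) and the block (0.033) and for Smad2 within the index series (-0.059). Tgfb3 between the diets in Fc(mML1)B3 mice was at 0.044 with voom, and the interaction of Tgfb2 at -0.0082 with DESeq2, -0.0091 with RLE scaling, -0.0032 with the filter at 0.5 CPM and -0.0025 without one. Smad7 between the diets in Fc mice was at 0.047 without HFD Fc mice 7 and 8 and 0.025 without these and Fc(mML1)B3 mouse 5. The cause was not tested.

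Leaving out single mice gave 0 to 2 higher and 2 to 3 lower genes under HFD, 1 to 2 lower under standard diet, 1 to 2 higher and 3 to 4 lower between the diets in Fc mice, 1 to 2 lower in Fc(mML1)B3 mice and 0 to 1 lower for the interaction. Signs changed for Tgfbr3 (-0.12 to 0.028) under HFD, Tgfbr1 (-0.029 to 0.021), Tgfbr3 (-0.071 to 0.033) and Skil (-0.090 to 0.0073) under standard diet, Smad2 (-0.0051 to 0.076) and Smad7 (-0.18 to 0.039) between the diets in Fc mice, Smad3 (-0.0018 to 0.12) in Fc(mML1)B3 mice, and the interactions of Tgfb2 (-0.14 to 0.26) and Tgfbr3 (-0.047 to 0.13). Tgfb2 and Tgfb3, with as few as 28 and 18 reads in a library, have the widest intervals. Within a library RPKM ranks the genes as TPM does by construction, so it is no check of their order.

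Over all genes, 1972 passed under HFD, beside 3039 with voom, 3133 with all 36 libraries, 705 with the first index series, 1294 with the block and 178 with the fold limits. Under standard diet 2186 passed, beside 785 with all 36 libraries, 1296 with the block, 942 within the index series and 320 with the fold limits. For the interaction 1278 passed, beside 2026 with voom and 271 with the fold limits, which left 702 and 564 genes between the diets.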
